A study of Mus musculus with 8 samples.

Results

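The ERK feedback inhibitors described here are 9 genes, the MAP kinase phosphatases Dusp4, Dusp5 and Dusp6, the Sprouty genes Spry1, Spry2 and Spry4, and the Sprouty-related genes Spred1, Spred2 and Spred3. They were chosen by gene symbol from the 24787 rows of the deposited table, and all 9 had a row. RNA was measured in 8 libraries of 4T1, a mouse mammary tumour cell line in culture. The 4 control libraries carry a control shRNA in cells labelled WT, and the other 4 carry an shRNA in cells labelled as an Etv5 knockdown. The library names give 1 shRNA construct for each group, and nothing in the labels says whether the replicates were separate cultures, so p-values measure only the spread between these libraries. All values are coverage values, read here as mean coverage over the bases of a gene after scaling for depth, so levels of different genes can be set side by side.

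ERK is the last kinase of the cascade that runs from growth factor receptors through RAS, RAF and MEK. Active ERK phosphorylates ETS factors, among them the PEA3 group to which Etv5 belongs, and switches on genes whose products dampen the same cascade. Dusp4 and Dusp5 encode phosphatases of the nucleus and Dusp6 a phosphatase of the cytoplasm that prefers ERK. Sprouty proteins act between the receptor and RAF, and Spred proteins bring the RAS inhibitor neurofibromin to the membrane. In many tissues Dusp6, Spry and PEA3 group transcripts are used as a readout of ERK activity, which is the reason to read them in an Etv5 shRNA experiment.

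Over all 8 libraries no ERK feedback inhibitor was called higher or lower, and only 0.494% of all tested genes were called. Without Etv5 shRNA replicate 3, a library that stands apart, Spry1 was higher with the Etv5 shRNA, at 26.6 ± 0.675 (SD, n = 3) against 17.8 ± 1.15 (SD, n = 4), a ratio of 1.49. It was called there, as were 3.14% of all tested genes. That call was lost when Etv5 shRNA replicate 1 was left out as well. The only other gene of the 9 whose groups did not overlap was Dusp6, at 56.8 ± 2.47 (SD, n = 3) against 67.5 ± 3.80 (SD, n = 4), and it was not called. These 2 of 9 are near the background, since groups did not overlap for 20.2% of all tested genes. Group means of Dusp4, Dusp5 and Spred1 then were nearly equal, with ratios of 1.0008, 1.0004 and 1.0005. Those controls still held control replicate 3, the lowest control for each of these genes. Without it the control means were 41.1, 17.0 and 19.1, against 37.4, 16.2 and 18.3 with the Etv5 shRNA.

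Spry1 and Dusp6 are the genes whose groups separated, in opposite directions, so the DNA just before their starts is shown. The 250 bases before the transcription start, from RefSeq on GRCm38.p6, lie at chr3:37639697-37639946 for Spry1 and at chr10:99262981-99263230 for Dusp6, both on the plus strand. Capitals mark AGGAAG, a site bound by PEA3 group factors, on either strand.
Spry1: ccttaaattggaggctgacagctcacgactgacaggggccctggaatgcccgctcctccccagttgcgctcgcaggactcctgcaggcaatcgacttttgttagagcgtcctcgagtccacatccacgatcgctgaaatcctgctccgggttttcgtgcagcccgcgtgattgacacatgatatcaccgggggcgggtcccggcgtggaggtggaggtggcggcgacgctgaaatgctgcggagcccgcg
Dusp6: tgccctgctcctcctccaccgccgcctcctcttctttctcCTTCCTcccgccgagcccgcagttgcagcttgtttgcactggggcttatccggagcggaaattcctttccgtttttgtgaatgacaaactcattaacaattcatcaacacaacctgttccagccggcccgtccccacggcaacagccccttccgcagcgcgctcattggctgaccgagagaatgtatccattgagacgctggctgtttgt
The Spry1 window held neither AGGAAG nor CCGGAAGT, a longer ETS site, on either strand. The Dusp6 window held AGGAAG 1 time, on the minus strand, beginning 210 bases before the start. RefSeq entries matched 7 of the 9 genes, all but Dusp4 and Spry4. AGGAAG was found in 3 of the 7 windows (Dusp5, Dusp6 and, with 2 matches, Spred2) and in 29.5% of 32851 windows of the same length before all listed starts. CCGGAAGT, which does not overlap AGGAAG, was in 0 of the 7 and in 2.88% of all. The AP-1 site TGANTCA and the CREB site TGACGTCA were in 0 of the 7, against 6.75% and 1.55% of all windows. These matches describe letters in a window and not binding.

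The targeted gene, Etv5, overlapped between the groups over 8 libraries and was not called lower in any setting. Its coverage values were 15.2, 15.1, 11.7 and 14.4 in controls and 13.0, 11.2, 7.52 and 12.7 with the Etv5 shRNA. The difference in log2(value + 1), Etv5 shRNA minus control, was -0.33 (95% interval -0.76 to 0.09, adjusted p 0.819 by limma), and -0.17 (adjusted p 0.422) without Etv5 shRNA replicate 3. Part of its transcript, 26.8% of 50-base stretches, also occurs in the pseudogene Gm4798. With replicate 3 of both groups left out, all 3 Etv5 shRNA libraries lay below all 3 controls, with a log2 difference of -0.26 (95% interval -0.43 to -0.08), an unadjusted p of 0.00784 and an adjusted p of 0.0675 by limma. With length and GC trends removed and without Etv5 shRNA replicate 3 it was -0.19 (95% interval -0.38 to -0.01, adjusted p 0.169 by limma). Every difference below is therefore between libraries by label.

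Etv5 shRNA replicate 3 stood apart, and control replicate 3 leaned the same way. Coverage values summed to 390495 in Etv5 shRNA replicate 3 and to between 254792 and 308393 in the others, the upper end being control replicate 3. Median-of-ratios scaling divides a library by its size factor, which was 0.682 for Etv5 shRNA replicate 3 and 1.05 to 1.09 for the others. Where that library lies relative to the controls thus depends on the scaling. Overlap between groups and lowest libraries are given throughout on the values as deposited. Ribosomal protein genes made up 21.8% of the sum in Etv5 shRNA replicate 3, 12% in control replicate 3 and 7.89% to 9.84% elsewhere. Against the median library, the 25% of tested genes with the longest transcripts had a median of -1.04 on the log2 scale in Etv5 shRNA replicate 3 and -0.28 in control replicate 3. In the 25% with the shortest it was 0.33 and 0.24. Epithelial tumour cell markers were present throughout, with all 9 tested and summed coverage values between 1345 and 1829 in controls and between 1371 and 3205 with the Etv5 shRNA (1371 to 1703 without replicate 3). Of 10 leukocyte markers, 9 stayed under 0.5 in every library, Cd3e and Adgre1 at 0, with sums from 3.02 up to 4.58 in controls and from 2.93 up to 3.39 in the other group. All 5 endothelial markers stayed under 0.5 (sums at most 0.125), as did 6 of 7 fibroblast markers, Dcn and Lum at 0. Pdgfra was the exception, and the fibroblast sums reached 2.76 to 3.60 in controls, against 0.641 to 2.55 in the other group. The part of depth, RNA quality or transcript length in the differences below was not tested beyond the values without this library and with length and GC content (the share of G and C bases) taken out.

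All 9 genes passed the filter on low values (0.5 or more in at least 4 libraries). In controls Dusp6 had the highest level, 67.5 ± 3.80 (SD, n = 4), followed by Dusp4, 37.4 ± 7.92. Spred1 (18.2 ± 1.75), Spry1 (17.8 ± 1.15), Spred2 (17.7 ± 7.18), Spry2 (16.4 ± 0.938) and Dusp5 (16.2 ± 1.64) followed. These 5 neighbours in the order did not differ beyond their spread. Spred3 (7.27 ± 1.26) and Spry4 (3.17 ± 0.539) were the lowest, and their control libraries overlapped neither each other nor those of Spry2 or Dusp5, although Spred2 fell to 7.20 in control replicate 3. The Dusp6 and Dusp4 libraries did not overlap each other in controls.

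**Figure D1:**
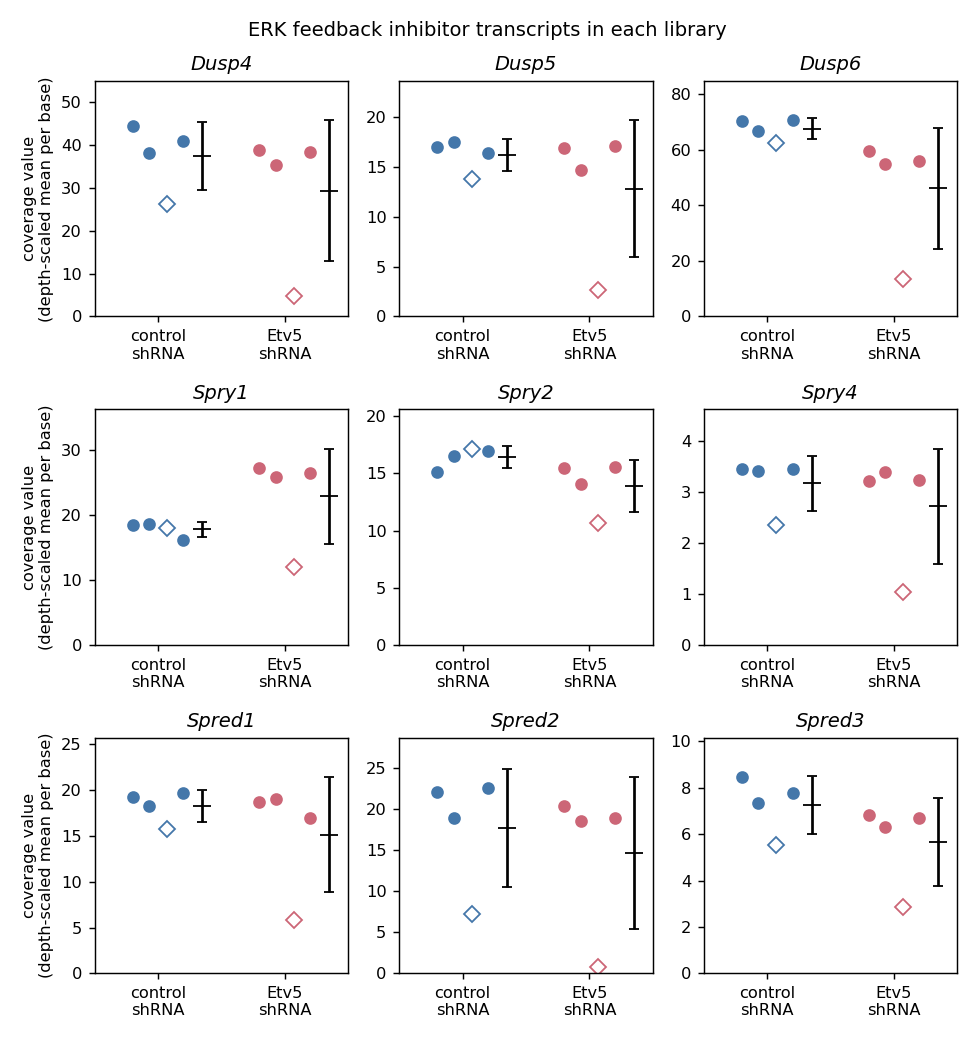
Coverage value (depth-scaled mean per base) of each of the 9 genes in the 4 control shRNA libraries (blue) and the 4 Etv5 shRNA libraries (red), each panel with its own axis from 0. Open diamonds are replicate 3 of each group, and black marks are the mean and SD over 4 libraries. The red diamond is the lowest point in all 9 panels, and the other 3 red points lie above the blue ones for Spry1 and below them for Dusp6.

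Over 8 libraries, the log2 differences of the 9 genes ran from -0.74 for Dusp6 to 0.28 for Spry1, 8 of them negative, with adjusted p values by limma from 0.834 to 0.879. Of all 11731 tested genes 0.494% were called, and 832 had an unadjusted p under 0.05, among them 0 of the 9. The smallest unadjusted p, that of Dusp6, was 0.117. The median difference of the 9 was -0.37, against -0.11 for all tested genes. Without Etv5 shRNA replicate 3 these medians were 0.004 and -0.003. With replicate 3 of both groups left out they were -0.10 and -0.01. Each of the 9 had its lowest value in Etv5 shRNA replicate 3, as had 61.7% of all tested genes.

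**Figure D2:**
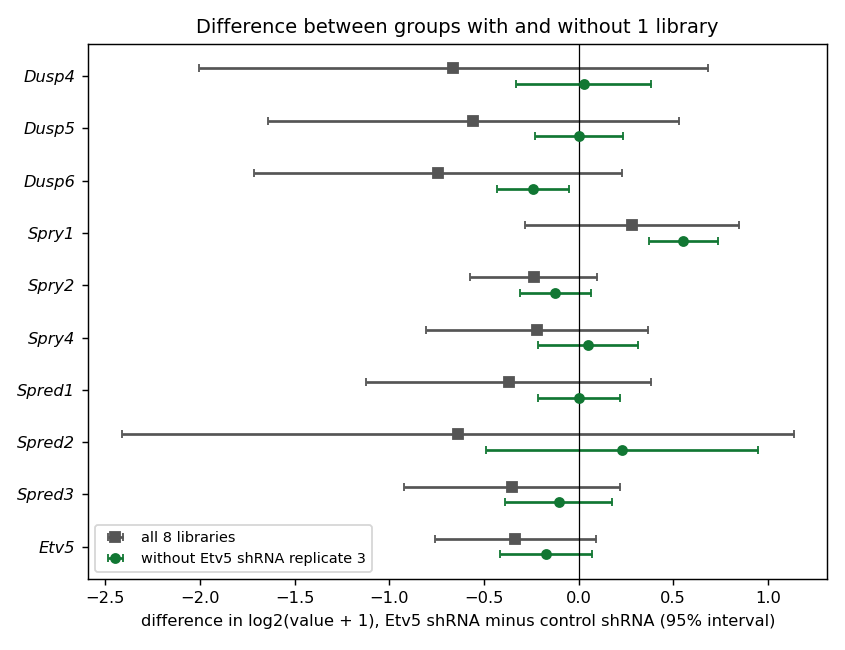
Difference in log2(value + 1), Etv5 shRNA minus control shRNA, with its 95% interval by limma, for the 9 genes and Etv5. Grey squares use all 8 libraries and green circles leave out Etv5 shRNA replicate 3. The grey intervals all include 0, and the green ones leave out 0 for Spry1 (0.37 to 0.74) and for Dusp6 (-0.43 to -0.05).

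Among the phosphatases, Dusp6 was the most abundant. In the values as deposited it was the only gene of the 9 without overlap between groups over 8 libraries. Its coverage values were 70.2, 66.8, 62.3 and 70.5 in controls and 59.6, 54.9, 13.4 and 56.0 with the Etv5 shRNA. All 4 Etv5 shRNA libraries lay below all 4 controls, as for 7.58% of all tested genes (9.1% did not overlap in either direction), and replicate 3 lay far below the rest. The log2 difference was -0.74 (95% interval -1.71 to 0.23) over 8 libraries and -0.24 (-0.43 to -0.05) without Etv5 shRNA replicate 3, with adjusted p 0.834 and 0.161 by limma. Dusp6 was called lower in 1 setting, with replicate 3 of both groups left out (-0.28, adjusted p 0.0346 by limma), where 8.91% of all tested genes were called. Dusp6 lies on chromosome 10 of mm10, from 99263231 to 99267489 on the plus strand, and its longest transcript has 3 exons.

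Dusp4, a nuclear phosphatase gene, showed the largest fall of the phosphatases in Etv5 shRNA replicate 3. It was 44.5, 38.1, 26.2 and 40.8 in controls and 38.7, 35.2, 4.70 and 38.3 with the Etv5 shRNA, 7.96-fold lower in replicate 3 than the mean of the other 3 Etv5 shRNA libraries. Without that library the groups overlapped and the log2 difference was 0.03 (95% interval -0.33 to 0.38). Dusp5, whose product is confined to the nucleus and binds ERK there, ran from 13.8 to 17.5 in controls and was 16.9, 14.7, 2.66 and 17.1 with the Etv5 shRNA. Its log2 difference without replicate 3 was 0.00 (95% interval -0.23 to 0.23). For Dusp4 and Dusp5, then, most of the negative difference over 8 libraries came with 1 library. With replicate 3 of both groups left out it was -0.13 (95% interval -0.31 to 0.04) for Dusp4 and -0.07 (-0.24 to 0.11) for Dusp5. Of the 50-base stretches of Dusp5, 20.5% also lie on the opposite strand in the transcript AC137853.2. The library kit keeps no strand in its usual form, so reads of overlapping transcripts on opposite strands cannot be told apart.

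Among the Sprouty genes, which act near the receptor, only Spry1 separated. Its coverage values were 18.5, 18.6, 18.1 and 16.1 in controls and 27.3, 25.9, 12.0 and 26.5 with the Etv5 shRNA. The 3 Etv5 shRNA libraries other than replicate 3 all lay above every control. In the values as deposited replicate 3 lay below every control, so over 8 libraries the groups overlapped (log2 difference 0.28, 95% interval -0.28 to 0.85, adjusted p 0.879 by limma). With median-of-ratios scaling over 8 libraries the log2 difference was 0.45 (adjusted p 0.381 by limma). Without replicate 3 the log2 difference was 0.55 (SE 0.082, 95% interval 0.37 to 0.74), adjusted p 0.00826 by limma. In that comparison 3.14% of all tested genes were called, 1.08% of them higher and 2.05% lower out of the same total, and groups did not overlap for 20.2% of tested genes (9.76% higher, 10.4% lower) and for 2 of the 9. In bulk RNA, more cells with the transcript and more transcript per cell cannot be told apart.

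The higher Spry1 value rests on the Etv5 shRNA libraries that remain. With Etv5 shRNA replicate 3 and 1 further library left out, Spry1 had log2 differences of 0.51 to 0.57. Its adjusted p by limma was 0.00257 to 0.042 in 6 of those 7 fits and 0.0674, not called, when the further library was Etv5 shRNA replicate 1. With length and GC trends removed and without Etv5 shRNA replicate 3, the difference was 0.62 and the adjusted p 0.000907 by limma, with 11.1% of all tested genes called. Spry1 lies on chromosome 3, from 37639947 to 37644598 on the plus strand. Of its 50-base stretches 19.4% lie on the opposite strand in Gm42922, a transcript with no row in the table, so that much of its coverage could hold antisense reads.

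Spry2 and Spry4 did not follow Spry1. Spry2 was 15.1 to 17.2 in controls and 15.4, 14.0, 10.7 and 15.5 with the Etv5 shRNA. Of the 9 genes it was the least lowered in Etv5 shRNA replicate 3, by 1.40-fold. Its log2 difference without that library was -0.12 (95% interval -0.31 to 0.06). Spry4 was 3.46, 3.41, 2.36 and 3.45 in controls and 3.21, 3.40, 1.03 and 3.24 with the Etv5 shRNA, low in replicate 3 of each group. Without Etv5 shRNA replicate 3 its log2 difference was 0.05 (95% interval -0.22 to 0.31). With replicate 3 of both groups left out it was -0.05 (-0.23 to 0.12).

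The ratio of Spry1 to Spry2 within a library does not change when all values of that library are multiplied by a common factor. Quantile normalisation and the removal of length and GC trends are not of that kind. It was 1.22, 1.13, 1.05 and 0.949 in controls and 1.77, 1.85, 1.12 and 1.71 with the Etv5 shRNA. Replicate 3 lay within the control range, and the other 3 lay above it. The ratio of Spry1 to Dusp6 was 0.263, 0.278, 0.290 and 0.228 in controls and 0.457, 0.472, 0.894 and 0.474 with the Etv5 shRNA. All 4 Etv5 shRNA libraries lay above all controls there, with replicate 3 highest. In that library Dusp6 was 4.23-fold lower than the mean of the rest of its group, and Spry1 2.21-fold. The ratio of Spry1 to Spry4 was 5.34, 5.46, 7.65 and 4.66 in controls and 8.49, 7.63, 11.6 and 8.19 with the Etv5 shRNA. Control replicate 3 there lay just above Etv5 shRNA replicate 2, so the groups overlapped. Spry1 and Dusp6 were picked for their separation, so these ratios are given without a test.

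**Figure D3:**
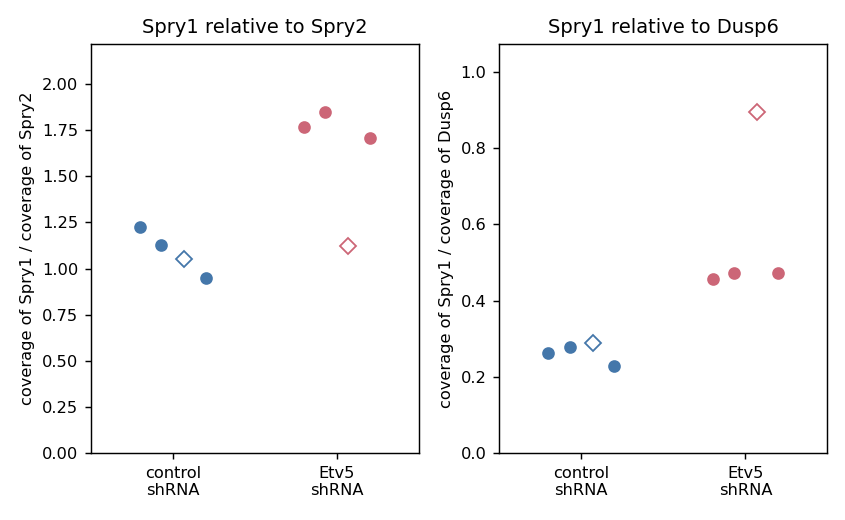
Coverage of Spry1 divided by that of Spry2 (left) and of Dusp6 (right) in each library, on linear axes from 0, with control shRNA in blue, Etv5 shRNA in red and replicate 3 of each group as an open diamond. The filled red points lie above the blue ones in both panels, while the red diamond is within the control range on the left (1.12) and highest on the right (0.894).

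The Spred genes, whose products bind RAS and neurofibromin, showed no called difference in any setting. Spred1 was 15.8 to 19.7 in controls and 18.7, 19.0, 5.82 and 17.0 with the Etv5 shRNA, and its log2 difference without replicate 3 was 0.00 (95% interval -0.21 to 0.22). With replicate 3 of both groups left out it was -0.06 (-0.22 to 0.10). Spred2 was 22.0, 19.0, 7.20 and 22.6 in controls and 20.3, 18.5, 0.830 and 18.9 with the Etv5 shRNA. It was low in replicate 3 of both groups, 2.94-fold below the mean of the other 3 controls and 23.2-fold below the mean of the other 3 Etv5 shRNA libraries. This left its log2 difference without Etv5 shRNA replicate 3 the least precise of the 9, at 0.23 (95% interval -0.49 to 0.95), and with replicate 3 of both groups left out it was -0.13 (-0.31 to 0.05). Spred3 was 8.46, 7.33, 5.52 and 7.76 in controls and 6.82, 6.33, 2.86 and 6.69 with the Etv5 shRNA. With replicate 3 of both groups left out its log2 difference was -0.22 (95% interval -0.39 to -0.04), and its adjusted p 0.123 by limma.

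Among themselves the 9 genes differed widely in how low they were in Etv5 shRNA replicate 3. On the log2(value + 1) scale, relative to the mean of the other 3 Etv5 shRNA libraries, Spred2 lay at -3.47, Dusp4 at -2.75, Dusp5 at -2.24 and Dusp6 at -2.0. Fewer than 3% of tested genes lay lower than each of these, at 0.162%, 0.571%, 1.59% and 2.62%. Spred1 lay at -1.50, Spry1 at -1.08, Spry4 at -1.08 and Spred3 at -0.98. Spry2, at -0.45, was near the median of all tested genes, -0.47. In control replicate 3 the same measure was lowest for Spred2, -1.44, with 0.128% of tested genes lower, and for Dusp4, -0.63, with 4.92% lower. Spry1 and Spry2 lay at 0.03 and 0.08 there, and the median of all tested genes was -0.03. Thus the lowest genes in replicate 3 of one group, Spred2 and Dusp4, were also the lowest in replicate 3 of the other. Control replicate 3 was the lowest control for 7 of the 9 genes, and for 43.9% of all tested genes.

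**Figure D4:**
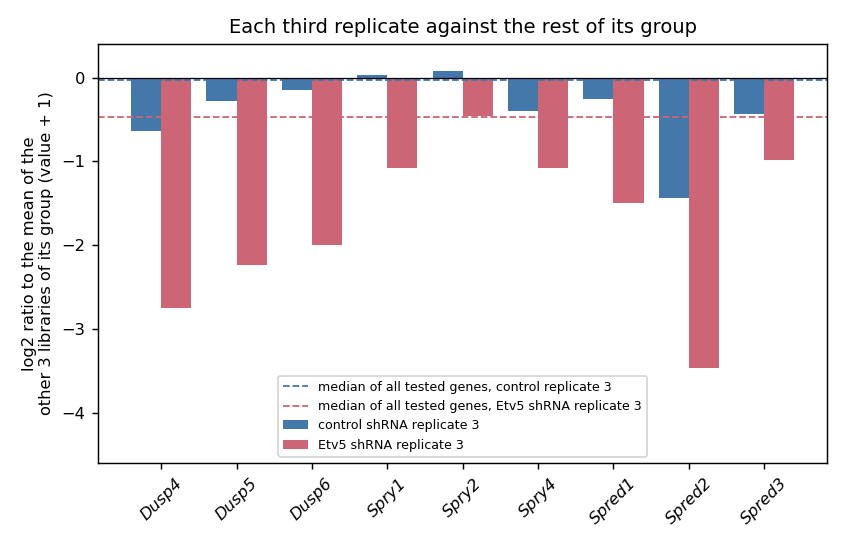
Log2 ratio, on value + 1, of replicate 3 to the mean of the other 3 libraries of its group, for control shRNA (blue bars) and Etv5 shRNA (red bars), for the 9 genes. Dashed lines are the medians of all tested genes, -0.03 in control replicate 3 and -0.47 in Etv5 shRNA replicate 3. Spred2 has the lowest bar in both groups, and Spry2 the shortest red bar.

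Transcript length and base composition differed among the 9 genes, and their part in these values was not tested. Dusp4 and Spry1 have longest transcripts of 2740 and 2773 bases with 56% and 56.7% G and C, and lay at -2.75 and -1.08. Spred1 has the longest transcript, 6016 bases, and the lowest G and C content, 41.2%, and lay at -1.50. Spry2 has the shortest, 2087 bases, at 46.2% G and C, and lay at -0.45. Dusp5 (2473 bases, 56.7% G and C) lay at -2.24 and Dusp6 (2796 bases, 49%) at -2.0. Spry4 (4755 bases, 51.2%) lay at -1.08 and Spred3 (4056 bases, 55.4%) at -0.98. Spred2 has 4449 bases at 51.2% G and C, and lay at -3.47. Of its 50-base stretches 1.41% also occur in Gm14612 on the same strand.

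The genes with the most similar profile were sought by the root mean square difference of centred log2(value + 1). Over 8 libraries these were Kcnk1 (0.0832), Cyr61 (0.0918) and Ccdc68 (0.1) for Spry1, whose own SD over the libraries was 0.391. Kcnk1 encodes a potassium channel and Cyr61 a matricellular protein. Over the 7 libraries without Etv5 shRNA replicate 3 they were Car5b, Atf3 and Fads3 (0.0622 to 0.0662; Spry1 own SD 0.303). For Dusp6 they were Ptk7, Irf2bpl and Shc1 over 8 libraries (0.0758 to 0.0913; own SD 0.769), and Zfp395, Ctc1 and Tcf7l2 over 7 (0.0278 to 0.0306; own SD 0.146). For Spry4 they were Cbfa2t2, Ube4b and Fermt1 over 8 (0.0211 to 0.0449; own SD 0.394), and Cbfa2t2, Fmnl2 and Sec24d over 7 (0.0215 to 0.0331; own SD 0.145). All profiles share the same libraries, and over 8 they share the low value in Etv5 shRNA replicate 3.

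Of the other MAP kinase phosphatase genes, 7 were tested. None was called over 8 libraries, with a median log2 difference of -0.16 against -0.11 for all tested genes. Without Etv5 shRNA replicate 3 only Dusp8, which encodes a phosphatase of JNK and p38, was higher. It was 3.73, 3.44, 3.44 and 2.93 in controls and 4.83, 5.06, 2.97 and 5.55 with the Etv5 shRNA, and its adjusted p was 0.0308 by limma (log2 difference 0.49). This call was lost when any 1 further library other than control replicate 3 was left out (adjusted p 0.062 to 0.132 by limma). The list's median was then 0.10, against 0.00 for all. Dusp9, which encodes a cytoplasmic phosphatase, was called higher only when length and GC trends were removed as well (0.43, adjusted p 0.00772 by limma). In that setting 11.1% of all tested genes were called. Dusp1, an immediate early phosphatase gene, was 5.31 ± 0.675 and 3.71 ± 1.39 (n = 4 in both groups, SD), with a log2 difference of -0.47 and an adjusted p of 0.773 by limma. Dusp2 was under 1.1 throughout (0.615 and 0.834).

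In the cascade itself, 21 genes for adaptors, RAS, RAF, MEK and ERK were tested and none was called, either over 8 libraries (median log2 difference -0.16) or without Etv5 shRNA replicate 3 (0.08). Mapk3, which encodes ERK1, was 62.9, 71.5, 79.1 and 65.9 in controls and 53.0, 47.0, 55.4 and 53.5 with the Etv5 shRNA. In the values as deposited all 4 Etv5 shRNA libraries, replicate 3 included, lay below all controls, as for 7.58% of all tested genes. The log2 difference of Mapk3 was -0.41 over 8 libraries and -0.44 without replicate 3, with adjusted p 0.412 and 0.0544 by limma. With median-of-ratios scaling over 8 libraries it was -0.24 (adjusted p 0.863 by limma). Mapk3 and Shc1 were lower by limma with replicate 3 of both groups left out (adjusted p 0.0197 and 0.0297) and with length and GC trends removed and without Etv5 shRNA replicate 3 (0.0105 and 0.0363). These 2 of 21 are near the background, since 8.91% and 11.1% of all tested genes were called in these settings. Shc1, which encodes a receptor adaptor, was 38.0 ± 2.11 (SD, n = 4) in controls and 31.6 ± 1.95 (SD, n = 3) without replicate 3. Ksr1, which encodes a RAF and MEK scaffold, was 2.60 and 1.81 (adjusted p 0.695 by limma).

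Of 15 other negative regulators, 13 were tested and none was called in either comparison (medians -0.18 and 0.09). Those with the smallest p over 8 libraries were Lztr1, Rasa2 and Dab2ip, with log2 differences of -0.15, -0.32 and -0.23 and adjusted p of 0.879 to 0.881 by limma. Of 15 upstream receptor tyrosine kinase genes, 10 were tested, with none called over 8 libraries (median -0.40). Without Etv5 shRNA replicate 3 only Pdgfra was lower, at 1.99 ± 0.138 (SD, n = 3) against 3.25 ± 0.474 (SD, n = 4), adjusted p 0.0452 by limma. That call was lost when any 1 further library other than control replicate 3 was left out (0.091 to 0.189). Fgfr2, whose ligands induce Sprouty genes, was 19.9, 13.3, 5.84 and 16.3 in controls and 10.3, 8.53, 0.151 and 10.3 with the Etv5 shRNA. Like Spred2 it was low in both of those libraries. It was called lower with both left out (adjusted p 0.0119 by limma), and not over 8 libraries (0.862). Met, the receptor of hepatocyte growth factor, lay the other way. It was 17.4, 16.6, 11.8 and 19.0 in controls and 22.4, 24.7, 6.24 and 20.6 with the Etv5 shRNA. Met was called higher with both of those libraries left out (log2 difference 0.34, adjusted p 0.0397 by limma) and with length and GC trends removed and without Etv5 shRNA replicate 3 (0.34, adjusted p 0.0149), and not in the other settings. Of all tested genes 8.91% were called with both libraries left out and 11.1% with the trends removed. Fgfr3 was 1.93 ± 0.243 and 1.21 ± 0.410 (n = 4 in both groups, SD), with an adjusted p of 0.573 by limma.

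ERK-dependent transcripts other than the feedback inhibitors did not move together. Of 20 genes 19 were tested, and over 8 libraries only the early response gene Ier3 was lower. Its values were 87.4, 85.8, 108 and 86.3 in controls and 49.6, 42.4, 37.4 and 53.0 with the Etv5 shRNA (log2 difference -1.0, adjusted p 0.0338 by limma). That call over 8 libraries was lost in 7 of the 8 fits that left out 1 library, all but that without Etv5 shRNA replicate 3. Without that library Ier3 (adjusted p 0.00352 by limma) and the cytokine gene Lif (9.01 ± 0.371, n = 3, against 14.9 ± 1.62, n = 4; SD; adjusted p 0.00854) were lower. Lif lost its call when Etv5 shRNA replicate 1 or 2 was left out as well (adjusted p 0.0557 and 0.0624 by limma). Emp1, a membrane protein gene, was 189, 209.7, 200.1 and 209.7 in controls and 252, 263, 71.6 and 242 with the Etv5 shRNA. It was called higher in the same settings as Met (log2 differences 0.32 and 0.30, adjusted p 0.0399 and 0.0168 by limma). In these settings 8.91% and 11.1% of all tested genes were called. Etv1, the third PEA3 group gene, was called lower only in the last of these, with length and GC trends removed and without Etv5 shRNA replicate 3 (-0.29, adjusted p 0.0299 by limma). The list's median was -0.20 over 8 libraries and -0.05 without replicate 3. Etv4, a PEA3 group relative of Etv5, was 48.1 ± 3.13 and 38.8 ± 4.07 (n = 4 in both groups, SD), without overlap, and its adjusted p by limma was 0.651. Plaur, the urokinase receptor gene, was 80.6 ± 12.0 and 62.4 ± 11.0 (adjusted p 0.724). Among genes that ERK is known to switch on, Spry1 was thus higher and Ier3 and Lif lower in the same 7 libraries. Emp1, Dusp6 and Etv4 were not called there. Their intervals lay above 0 for Emp1 (0.10 to 0.54) and below 0 for Dusp6 (-0.43 to -0.05) and Etv4. Those of Dusp4, Dusp5 and Spry4 span 0.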

How the data were processed

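RNA of 8 libraries of 4T1 cells was sequenced. Per the labels' protocols, a TruSeq RNA kit and a NovaSeq sequencer were used. STAR 2.7.10a and the mm10 genome are named in the submitters' processing notes. The deposited values are a signal, coverage per gene derived from coverage tracks per the file headers. How coverage was averaged and scaled, and on which annotation, is not given in the sources used here. Values times transcript length came to 739 to 769 megabases in each library, which is why they were read as coverage per base. Read depth is unknown, so no counting interval is given. Values were tested as log2(value + 1), which understates the change of low genes, with limma 3.58.1 in R 4.3.3, an intensity trend and Benjamini-Hochberg adjustment over 11731 genes with 0.5 or more in at least 4 libraries. Called means an adjusted p under 0.05. The same genes were tested when libraries were left out. In 10 simulated sets of 8 libraries, the spread of each gene was taken without Etv5 shRNA replicate 3. There the test found 87.3% of genes changed by 1 on the log2 scale and 38.4% of those changed by 0.5, and 5.52% of calls were false. Over the 8 libraries themselves, no gene with a log2 difference smaller in size than 0.644 was called. Whether these shares hold for the feedback inhibitors over 8 libraries, Etv5 shRNA replicate 3 included, was not tested. The SE of their log2 difference ran there from 0.148 for Spry2 to 0.783 for Spred2, and was 0.428 for Dusp6.

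Groups and replicate numbers came from the titles. Lengths, GC content and loci came from GENCODE mouse release 21, longest transcript, for 97.7% of rows. Length and GC trends were removed by lowess (span 0.3). Other settings were median-of-ratios scaling, equal sums, quantile normalisation, other filters, a pseudocount of 0.1, a replicate block and leaving out each library. Leaving out replicate 3 of both groups, or Etv5 shRNA replicate 3 with 1 further library, and removing length and GC trends over 8 libraries were chosen after seeing the data. Named genes were all 9 feedback inhibitors, Etv5, pathway genes called over 8 libraries or without Etv5 shRNA replicate 3, the 3 per pathway list with the smallest p over 8 libraries, and the 3 with the most similar profile to Dusp6, Spry1 and Spry4. Dusp9, Etv1, Emp1 and Met, the other pathway genes called in any setting, were added after their values were seen. The genes and lists were chosen with earlier results of these data known.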

Additional observations from a re-analysis of the deposited data

Results flagged for a closer look

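In each group of 4 libraries the gap between the most extreme library and its neighbour was divided by the range of the group, for the 9 feedback inhibitors and 17 other named genes. Of 52 groups 16 passed Dixon's 95% critical ratio, where chance at 1 in 20 gives 2.6. The share of all tested genes past this ratio was not computed. Etv5 shRNA replicate 3 was the lowest library for 61.7% of all tested genes. The counts here and below therefore cannot be read as particular to the named genes. In the 16 groups that passed, the library was Etv5 shRNA replicate 3 in 12 and control replicate 3 in 4.

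Among the feedback inhibitors, Etv5 shRNA replicate 3 was the low library for 8 of 9, all but Spry2. Its coverage value was 4.70 for Dusp4, 2.66 for Dusp5, 13.4 for Dusp6, 12.0 for Spry1 and 1.03 for Spry4. It was 5.82 for Spred1, 0.83 for Spred2 and 2.86 for Spred3. Control replicate 3 was the low control for Spry4, at 2.36. Spred2, at 7.20 in that library, did not pass among controls.

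Among the other named genes, Etv5 shRNA replicate 3 was low for Shc1 (8.68), Lif (3.24) and Pdgfra (0.519), and high for Dusp2 (1.07). Control replicate 3 was low for Shc1 (34.8) and Pdgfra (2.54), and high for Ier3 (108).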

How the results depend on the processing

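Over 8 libraries, 0 of the 9 feedback inhibitors were called by limma with other scaling, filters or pseudocount, the length trend removed, or the replicate block. Of 234 refits of single feedback inhibitors over 26 settings, 184 kept direction and side of the threshold, 10 passed it and 40 turned direction. All 10 and all 40 left out Etv5 shRNA replicate 3. The cause of these turns was not tested beyond the length and GC correction.

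Leaving out libraries, 1 at a time or Etv5 shRNA replicate 3 with 1 further library other than control replicate 3, gave 28 to 368 called genes, 0 to 1 called feedback inhibitors and log2 differences from -0.417 to -0.114 for Etv5. The log2 difference ran from -0.908 to 0.116 for Dusp4, -0.767 to 0.0691 for Dusp5, -0.323 to 0.0835 for Spry4, -0.514 to 0.0515 for Spred1 and -0.997 to 0.378 for Spred2. It ran from -0.211 to 0.0278 for Lztr1, -0.466 to 0.126 for Rasa2 and -0.369 to 0.155 for Dab2ip. In these fits called genes numbered 0 to 1 among other phosphatases and among receptors, and 0 to 2 among ERK-dependent transcripts.

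The total of 58 called genes became 37 with a pseudocount of 0.1 and 93 with length and GC trends removed. With length and GC trends removed and without Etv5 shRNA replicate 3 it was 1308, with 1 feedback inhibitor, 2 other phosphatases, 2 cascade genes, 4 ERK-dependent transcripts and 2 receptors called. Log2 differences were then 0.0867 for Dusp4, 0.0776 for Dusp5, 0.00748 for Spry4, 0.196 for Spred2 and 0.0669 for Dab2ip. With median-of-ratios scaling and without that library the total was 361, with 1 feedback inhibitor, 1 other phosphatase, 2 ERK-dependent transcripts and 1 receptor. The differences were 0.0358 for Dusp4, 0.0121 for Dusp5, 0.0563 for Spry4, 0.0134 for Spred1, 0.238 for Spred2, 0.0613 for Rasa2 and 0.0987 for Dab2ip. With replicate 3 of both groups left out the total was 1045, with 2 feedback inhibitors, 1 other phosphatase, 2 cascade genes, 3 ERK-dependent transcripts and 3 receptors. ERK-dependent transcripts had 0 calls with median-of-ratios scaling, equal sums, the length trend removed or the length and GC trends removed. Receptors had 1 call, Pdgfra, in the last 2 of these settings. Lztr1 was at 0.0177 with median-of-ratios scaling.

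With the replicate block 51 genes were called, 0 of them feedback inhibitors and 0 ERK-dependent transcripts (Ier3 at an adjusted p of 0.0847 by limma). Same-numbered libraries correlated at 0.549, 0.0924, 0.794 and 0.51 in their deviations from the group means, of which 1 is not over the 0.1 asked of every pair. Controls 2 and 4 correlated best with differently numbered libraries (0.148 with Etv5 shRNA replicate 4 and 0.693 with replicate 2). With every control, Etv5 shRNA replicate 3 correlated with the opposite sign to the other Etv5 shRNA libraries. The group mean includes that library, so these correlations cannot decide whether the numbers are pairs. Nothing in the labels pairs the numbers, and they were not taken as pairs. Median-of-ratios scaling moved the median of all tested genes from -0.11 to 0.02. Depth is unknown, so low values such as those of Spry4 and Dusp2 have no counting error.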
